A study of Homo sapiens with 32 samples.

Results

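ATF4 is the basic leucine zipper transcription factor at the centre of the integrated stress response, and this account follows its mRNA, total and newly made, through endoplasmic reticulum (ER) stress and depletion of the RNA-binding protein IGF2BP3. The gene was chosen by name, and its row was selected on the number of reads: of the rows whose RefSeq identifier belongs to ATF4, the one with the most reads summed over all libraries stands for it. There were 2 such rows (NM_001675.3 and NM_182810.2), each with 147487 reads and identical in every count, so the choice had no effect on any value. ATF4 is 1 of 14336 named genes with reads. It was picked with its response to stress in these libraries already known, so its levels under stress are given as a description, with fitted changes and standard errors but no p-value.

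The experiment used HCT116, an established cell line from a human colorectal carcinoma, in which doxycycline switches on OsTIR1, a plant F-box protein that marks degron-tagged proteins for the proteasome when auxin is present. The parental line (genotype Tet-OsTIR1-PURO) had untagged IGF2BP3. The tagged line (mAID-IGF2BP3) carried the degron on both endogenous IGF2BP3 alleles, and whether it is 1 clone is not given in the sources used here. All 8 groups, controls included, received doxycycline at 200 ng/mL for 24 h and the uridine analogue 4-thiouridine (s4U) at 250 µM for the last 2 h. Auxin groups received indole-3-acetic acid at 500 µM for 9 h, and stressed groups tunicamycin, which blocks N-glycosylation, at 5 µg/mL for 5 h, both counted back from collection. Vehicle was DMSO. Each of the 8 combinations of line, stress and auxin had 4 libraries, 1 well of cells each. Nothing in the labels says whether the 4 wells were grown on separate days, so p-values measure the spread between these wells, which may be partly technical.

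SLAM-seq turns s4U in new RNA into T-to-C changes in the reads. A read with such a change is called labelled here, and the labelled share is the percentage of a gene's reads that are labelled. A newly made molecule can escape labelling, so the share tracks, but does not equal, the fraction of mRNA made in the last 2 h. No group went without s4U, so T-to-C changes from other sources were not measured. Levels are in CPM, read counts relative to a fixed total of reads of named genes, scaled with trimmed mean of M-values (TMM) factors. In whole libraries, fewer molecules per cell and a larger pool of other RNA cannot be told apart.

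In unstressed cells, ATF4 mRNA is translated poorly, because short reading frames in its leader capture ribosomes. When stress kinases phosphorylate eIF2, ribosomes bypass the inhibitory frame and reach the ATF4 start codon, and the protein then activates genes of amino acid supply, tRNA charging and the stress response itself. The ATF4 gene is also transcribed more in ER stress, and its mRNA is known to turn over quickly. SLAM-seq reads mRNA and does not measure the translational step.

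ATF4 lies on chromosome 22, at 39520559 to 39522686 of GRCh38.p14 (RefSeq). Its GENCODE 29 transcript has 3 exons and 1419 bases, of which 280 precede the main start codon, 1 frame of 351 codons follows, and 83 lie after the stop codon (chromosome 22, 39522603 to 39522685). The counted region was 84 bases with 28 T positions, and those last 83 bases also hold 28 T. The deposited tables give no coordinates for it. The 4 start codons of the transcript are shown because they are what the stress signal acts on; each line gives 15 transcript bases, with the ATG in capitals.
upstream start 1: cgcccacagATGtag
upstream start 2: acggccaccATGgcg
upstream start 3: gcttaagccATGgcg
main start: caccgcaacATGacc
The first ATG, at base 23, is followed at once by a stop codon. The second, at base 85, opens a frame of 3 codons. The third, at base 184, opens a frame of 59 codons that runs past the main start codon at base 281, so a ribosome that translates it cannot begin ATF4.

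Apart from T-to-C changes of other sources, which were not measured, labelled ATF4 reads come from molecules begun at the ATF4 promoter around the labelling period. For that reason the 250 bases before the RefSeq start (chr22:39520309-39520558, plus strand, GRCh38.p14) are given, with 2 motif matches in capitals.
ATF4 promoter: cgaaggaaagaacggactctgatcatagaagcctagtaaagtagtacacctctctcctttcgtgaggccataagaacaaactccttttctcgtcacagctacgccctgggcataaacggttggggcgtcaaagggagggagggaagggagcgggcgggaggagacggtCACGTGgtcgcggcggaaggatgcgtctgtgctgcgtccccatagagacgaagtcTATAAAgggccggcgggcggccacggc
The capitals mark an E-box (CACGTG, its first base 82 before the start) and a TATA box (TATAAA, 27 before the start). Over 35116 RefSeq promoter windows, each from 250 bases before to 50 after a start and read on both strands, 6.34% held the E-box letters and 10.7% the TATA letters. The letters of the C/EBP-ATF response element (TGATGNAAN, in 3.13% of windows), the cAMP response element (TGACGTCA, 1.65%) and the ER stress response element (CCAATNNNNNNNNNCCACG, 0.074%) were not in the ATF4 window. The 2 matches do not overlap, and a match describes the sequence only.

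The libraries held 3893443 to 24904646 deposited counts. The smallest, replicate 1 of parental cells with auxin and tunicamycin, stood apart, with 15.1 T positions per read where the other 31 had 20.3 to 24.1 and with 8.88% labelled reads where its 3 fellow replicates had 10.96% to 11.97%. Values for stressed parental cells with auxin are given with and without it. In the labelled percentage of all named-gene reads, replicates 1 and 3 lay above 2 and 4 in all 4 unstressed groups and below them in all 4 stressed groups, and the ATF4 share had the same order without overlap in 3 unstressed and 2 stressed groups. The labels name no batch. With odd against even numbers as a term within each state, an alternative chosen after seeing the data, the fitted ATF4 stress changes were 1.00 to 1.75 in total reads and -0.70 to -0.54 in share. HSPA5, the ER chaperone BiP, rose with tunicamycin in all 4 settings, by 2.47 to 2.70 on the log2 scale (edgeR adjusted p at most 9.14e-17). IGF2BP3 mRNA was at 145 to 183.5 CPM in the group means, but auxin removes the protein, which RNA counts do not check. Of 7 markers of colon epithelium, 6 were read in all 32 libraries and VIL1 in none; their summed level was 1844 to 2514 CPM in unstressed and 1958 to 2640 CPM in stressed libraries. Within that sum, CDH1 rose by 1.48 ± 0.31 and CDX2 fell by 0.49 on the log2 scale with stress in parental cells with vehicle (edgeR adjusted p = 0.00162 and 0.0209), and KRT18 rose by 0.45 ± 0.13 in parental cells with auxin (0.0279). Of 5 markers of other cell types, PTPRC and COL3A1 had no reads, PECAM1 and PDGFRB stayed at or under 0.715 CPM, and COL1A1 was read in every library. It was at 18.4 to 30.9 CPM unstressed and 21.9 to 59.8 CPM stressed, summed with PECAM1 and PDGFRB, and COL1A1 rose with stress in parental cells with auxin (0.73 ± 0.17, edgeR adjusted p = 0.00577); the part of any such cells in the results was not tested.

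ATF4 mRNA was 1.99-fold to 3.37-fold more abundant under tunicamycin in the group means of all 4 settings, and the highest of these was 2.85-fold without the smallest library. In unstressed parental cells with vehicle, ATF4 stood at 906.2, 1152, 688.8 and 914.2 CPM in replicates 1 to 4 (915 ± 189, SD, n = 4). With tunicamycin it stood at 1979, 1507, 1837 and 1979 CPM (1826 ± 223). Each stressed library was above each unstressed one. The fitted change was 1.00 ± 0.17 on the log2 scale (SE). With stress in this setting, 7.64% of all genes tested rose past an adjusted p of 0.05, a background given only for orientation, since ATF4 was chosen with this contrast known.

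The fitted difference was widest in parental cells with auxin. Unstressed, they held 509.6, 598.1, 529.8 and 724.1 CPM of ATF4 (590 ± 96.8), and stressed 2900, 1693, 1821 and 1542 CPM (1989 ± 618). The first of these stressed values is the smallest library. The fitted change was 1.75 ± 0.17 with it and 1.51 without it; the group mean without it was 1685 ± 140 CPM (n = 3). All 4 stressed libraries were above all 4 unstressed ones in either case. Of all genes, 7.26% rose in this comparison.

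Tagged cells showed the same order. With vehicle, ATF4 stood at 696.3, 705.5, 683 and 818.5 CPM unstressed (726 ± 62.5) and at 1845, 2092, 1603 and 2283 CPM stressed (1956 ± 296), a fitted change of 1.43 ± 0.17. With auxin, and so with IGF2BP3 targeted for degradation, it stood at 633.4, 434.9, 544.8 and 634.2 CPM unstressed (562 ± 94.4) and at 1440, 1620, 1385 and 1576 CPM stressed (1505 ± 111), a fitted change of 1.42 ± 0.17. The stressed and unstressed ranges were again apart in both settings. The share of all genes that rose was 2.93% with vehicle and 3.01% with auxin.

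Ordered by mean level, the groups ran from stressed parental cells with auxin (1989 CPM) through stressed tagged cells with vehicle (1956), stressed parental cells with vehicle (1826) and stressed tagged cells with auxin (1505) to unstressed parental cells with vehicle (915), unstressed tagged cells with vehicle (726), unstressed parental cells with auxin (590) and unstressed tagged cells with auxin (562). The one gap in this order without overlapping libraries lay between the lowest stressed and the highest unstressed group. All other neighbours overlapped. The plot of ATF4 level and labelled share by library shows both orders.

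**Figure D1:**
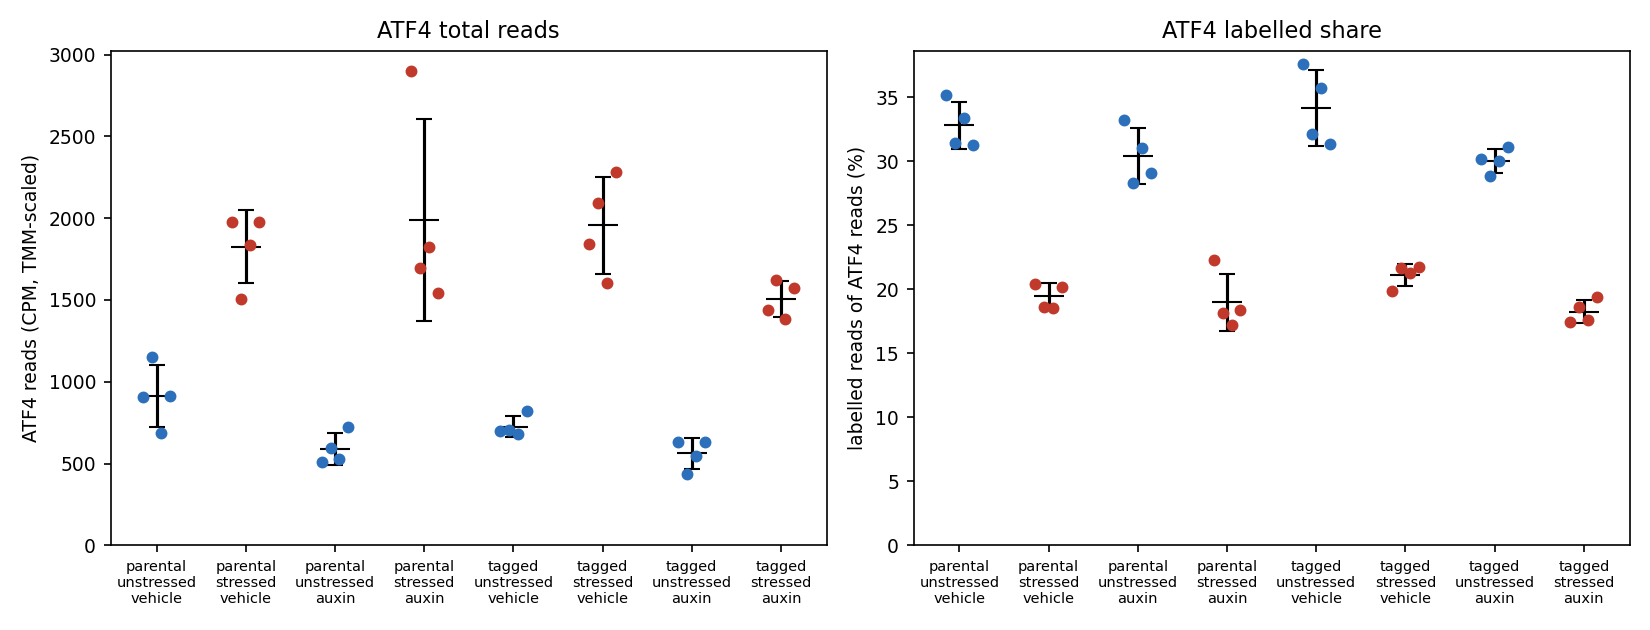
ATF4 level (left, TMM-scaled CPM) and labelled share of ATF4 reads (right, percent) in the 8 groups; each point is 1 library, the bar and whiskers are the mean and SD of 4, blue is unstressed and red stressed. All 16 stressed libraries lie between 1385 and 2900 CPM and between 17.2% and 22.3% labelled, all 16 unstressed ones between 434.9 and 1152 CPM and between 28.3% and 37.6%.

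While the level was higher, the labelled share of ATF4 was lower in every stressed library. In parental cells with vehicle, 35.18%, 31.47%, 33.42% and 31.27% of ATF4 reads were labelled without stress (32.8% ± 1.84) and 20.45%, 18.66%, 18.57% and 20.20% with it (19.5% ± 0.993). In parental cells with auxin, the shares were 33.25%, 28.30%, 31.03% and 29.07% unstressed (30.4% ± 2.21) and 22.27%, 18.13%, 17.22% and 18.36% stressed (19.0% ± 2.24). The ranges were apart in both, and the smallest library had the highest stressed share of its group; without it that mean was 17.9% ± 0.603 (n = 3).

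The tagged line gave 37.60%, 32.11%, 35.75% and 31.35% unstressed with vehicle (34.2% ± 2.97) and 19.85%, 21.68%, 21.24% and 21.71% stressed (21.1% ± 0.873). With auxin it gave 30.16%, 28.86%, 30.05% and 31.15% unstressed (30.1% ± 0.938) and 17.44%, 18.61%, 17.62% and 19.39% stressed (18.3% ± 0.909). No stressed library reached the lowest unstressed share in either. Each share rests on 1684 to 13667 ATF4 reads, and its 95% Wilson interval, which covers counting error only, is at most 4.41 percentage points wide. For the library with the fewest ATF4 reads, replicate 3 of unstressed tagged cells with auxin, that interval ran from 27.91% to 32.28%.

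The share was also fitted as the ratio of labelled to other reads, relative to that of the typical gene of each library, which takes out the library's overall labelling. On this scale, used for every share change below, ATF4 with stress was at -0.68 ± 0.08 and -0.55 ± 0.09 in parental cells with vehicle and auxin, and -0.70 ± 0.09 and -0.65 ± 0.09 in tagged cells (log2, SE). The second of these was -0.66 without the smallest library. In these comparisons 3.36%, 2.68%, 2.05% and 2.06% of all genes tested fell in share, and 4.81%, 5.4%, 5.01% and 5.06% rose. Without this centring, ATF4 was at -1.01, -0.91, -0.95 and -0.94, the median over all genes moved from -0.07 to -0.40 in the first comparison, and the genes that rose and fell in share went from 432 and 302 to 210 and 1777, from 485 and 241 to 195 and 1340, from 450 and 184 to 247 and 742, and from 454 and 185 to 210 and 902. The labelled percentage of all named-gene reads had group means of 12.1% to 12.9% unstressed and 10.9% to 11.8% stressed, and the libraries of both states overlapped in 3 of the 4 settings. The difference was larger in replicates 1 and 3 in every setting. In tagged cells with vehicle their mean went from 13.2% to 11.5%, while that of replicates 2 and 4 went from 12.04% to 12.2%. The ATF4 share was lower in both pairs there, at 36.7% and 20.55% in replicates 1 and 3 and 31.7% and 21.7% in 2 and 4. ATF4 was among the most labelled mRNAs before stress: of the genes with a mean of at least 200 reads, 93.6% to 95.7% had a lower share in the unstressed groups, against 76.9% to 84.1% in the stressed groups.

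The number of labelled ATF4 reads did not fall with its share. On the scale of all reads, labelled ATF4 in parental cells with vehicle was at 318.8, 362.6, 230.2 and 285.9 CPM unstressed (299 ± 55.8) and 404.6, 281.2, 341.2 and 399.8 CPM stressed (357 ± 58.0). These overlapped. ATF4 reads without a conversion went from 616 ± 137 to 1469 ± 166 CPM in the same libraries, 2.38-fold higher, with no overlap.

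The same split held in the other settings. With stress, labelled ATF4 reads were 2.17-fold higher in parental cells with auxin, 1.67-fold in tagged cells with vehicle and 1.63-fold in tagged cells with auxin, while reads without a conversion were 3.89-fold, 3.22-fold and 3.13-fold higher. None of these ranges overlapped. Without the smallest library, labelled and other reads in parental cells with auxin were 1.69-fold and 3.36-fold higher. Scaled to labelled reads alone, the fitted changes in labelled ATF4 were 0.52 ± 0.21 in parental cells with vehicle, 1.43 ± 0.22 in parental cells with auxin, 0.95 ± 0.21 in tagged cells with vehicle and 0.94 ± 0.22 in tagged cells with auxin (log2, SE). Without the smallest library the second was 1.03. The share of all genes that rose in labelled reads was 10.1%, 7.91%, 6.87% and 6.95%.

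**Figure D2:**
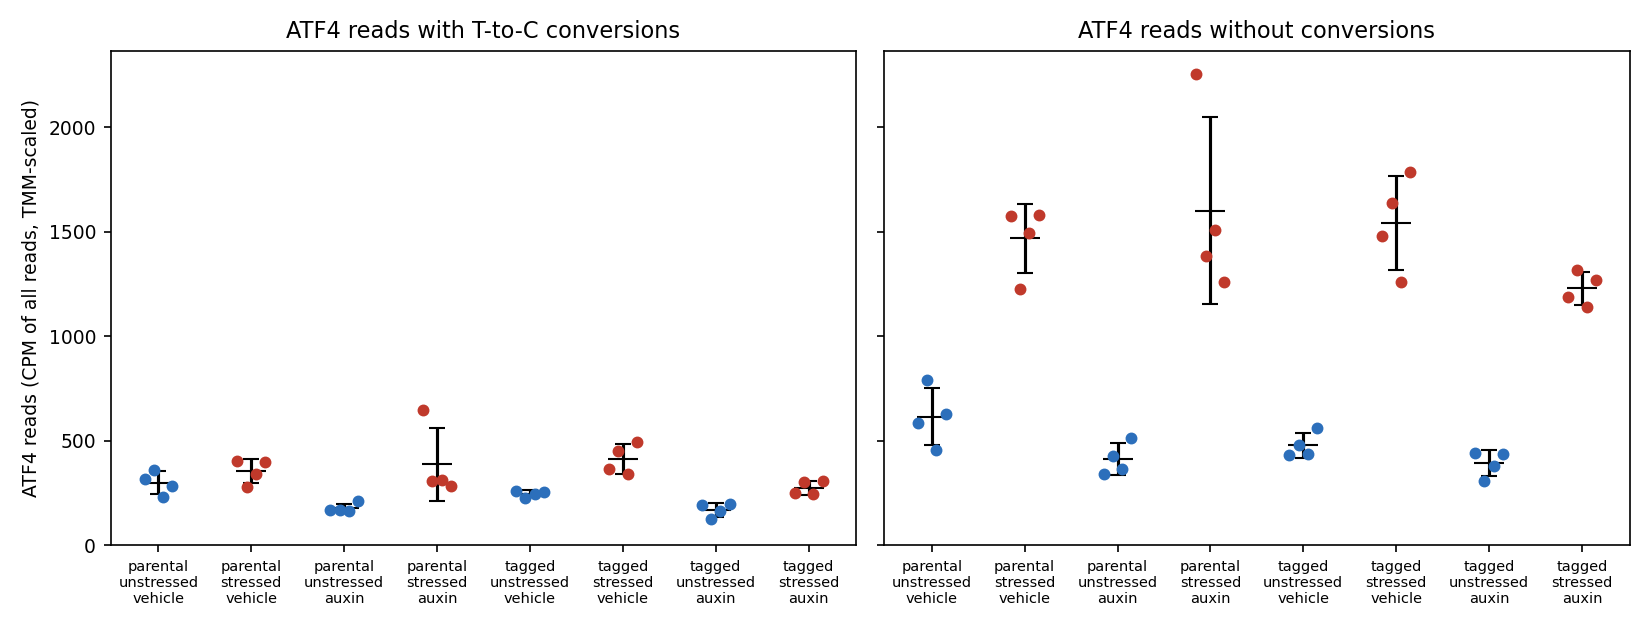
ATF4 reads with T-to-C conversions (left) and without (right), both in CPM of all reads on 1 scale, by group; points are libraries, bars and whiskers mean and SD of 4, blue unstressed, red stressed. The lone high labelled point, at 645.8 CPM, is the smallest library; the unconverted reads separate stressed from unstressed libraries in all 4 settings.

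The density of conversions within labelled ATF4 reads was lower under stress as well. A labelled read held 1.54 ± 0.05 conversions in unstressed and 1.27 ± 0.03 in stressed parental cells with vehicle, 1.47 ± 0.06 and 1.21 ± 0.07 with auxin, 1.62 ± 0.03 and 1.35 ± 0.04 in tagged cells with vehicle, and 1.51 ± 0.06 and 1.24 ± 0.02 in tagged cells with auxin (mean ± SD, n = 4). The ranges did not overlap in any pair, and the stressed value with auxin in parental cells was 1.18 ± 0.03 without the smallest library (n = 3). Over all covered T positions of ATF4, 2.29% to 2.80% were converted in the unstressed group means and 1.16% to 1.43% in the stressed ones. The median over genes with a mean of at least 200 reads was lower as well. It was 0.871% to 1.03% in unstressed and 0.650% to 0.774% in stressed groups, so sparser conversion under stress was not particular to ATF4. Reads covered 19.2 to 19.9 T positions on average in every group, so the length of T sequence read was alike. A new molecule is easier to miss where conversions are sparser; how far this enters the lower share was not tested.

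Auxin lowered ATF4 mRNA in unstressed parental cells, which have no degron. There the mean went from 915 ± 189 to 590 ± 96.8 CPM, a fitted change of -0.63 ± 0.17 (edgeR quasi-likelihood, adjusted p = 0.0247), though the highest auxin library (724.1 CPM) overlapped the lowest vehicle one (688.8 CPM). In this comparison 2.35% of all genes fell. The call depended on single libraries: without vehicle replicate 1, 2 or 4 the changes were -0.64, -0.50 and -0.63 (adjusted p = 0.0654, 0.138 and 0.0601), and without auxin replicate 1 or 3 they were -0.57 and -0.59 (adjusted p = 0.0981 and 0.101).

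In unstressed tagged cells, where auxin removes IGF2BP3, the mean was 726 ± 62.5 CPM with vehicle and 562 ± 94.4 with auxin. The 2 groups did not overlap, and the change of -0.37 ± 0.17 did not pass the test (edgeR, adjusted p = 0.219). In stressed cells the changes with auxin were 0.12 ± 0.17 in the parental line (adjusted p = 0.768; -0.11 without the smallest library) and -0.38 ± 0.17 in the tagged line (adjusted p = 0.327). Labelled ATF4 reads changed with auxin by -0.69 ± 0.21 in unstressed and 0.22 ± 0.21 in stressed parental cells, and by -0.45 ± 0.21 in each state of tagged cells, with no adjusted p under 0.117. On the scale of all reads, labelled ATF4 with vehicle and auxin did not overlap in tagged cells, unstressed (247.3 and 169.4 CPM) or stressed (413.9 and 275.6). It did not overlap in unstressed parental cells (299.4 and 178.4) and overlapped in stressed ones (356.7 and 387.3). Conversions per labelled read did not overlap in either state of tagged cells, and overlapped in both states of parental cells. The labelled share moved by -0.14 to 0.05 on the log2 scale with auxin, with no adjusted p under 0.801. In tagged cells the uncentred percentages did not overlap in either state, at 34.2% with vehicle and 30.1% with auxin unstressed and 21.1% and 18.3% stressed. Without centring the fitted changes there were -0.27 and -0.26 (edgeR adjusted p = 0.299 and 0.263), where they were -0.14 and -0.10 with it.

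Between the vehicle groups of the lines, no difference in ATF4 reads or share passed the test. The auxin groups of the lines were not tested against each other. With vehicle, tagged minus parental was -0.33 ± 0.17 in total reads unstressed and 0.10 ± 0.17 stressed (edgeR, adjusted p = 0.724 and 0.846), and 0.14 ± 0.09 and 0.13 ± 0.08 in labelled share (adjusted p = 0.943 and 0.845). Conversions in ATF4 were denser in stressed tagged than in stressed parental cells with vehicle, at 1.43% and 1.26% of covered T positions and 1.35 and 1.27 per labelled read, with no overlap of libraries in either measure. Over all named genes the same tagged libraries also ran higher, with some overlap. There 0.821% to 0.939% of covered T positions were converted, against 0.756% to 0.841% in the parental ones, so the difference was not particular to ATF4.

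The stress response of ATF4 with and without auxin was compared as an interaction in tagged cells, where auxin targets IGF2BP3 for degradation. This contrast holds any effect of auxin itself together with that of depletion. The stress effect with auxin minus that with vehicle was -0.01 ± 0.24 in total reads, -0.01 ± 0.30 in labelled reads and 0.04 ± 0.12 in labelled share (edgeR, adjusted p = 1 for each). The stress effect in tagged minus parental cells with vehicle was 0.43 ± 0.24 in total reads (adjusted p = 0.664), 0.43 ± 0.29 in labelled reads (0.786) and -0.01 ± 0.12 in share (0.996). None of these differences passed, and the standard errors bound what could have been seen. In parental cells, which have no degron, the fitted stress change in total reads was 1.00 with vehicle and 1.75 with auxin (1.51 without the smallest library). That difference was not tested, so the tagged interaction does not isolate depletion. The plot of the 12 comparisons sets these values side by side.

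**Figure D3:**
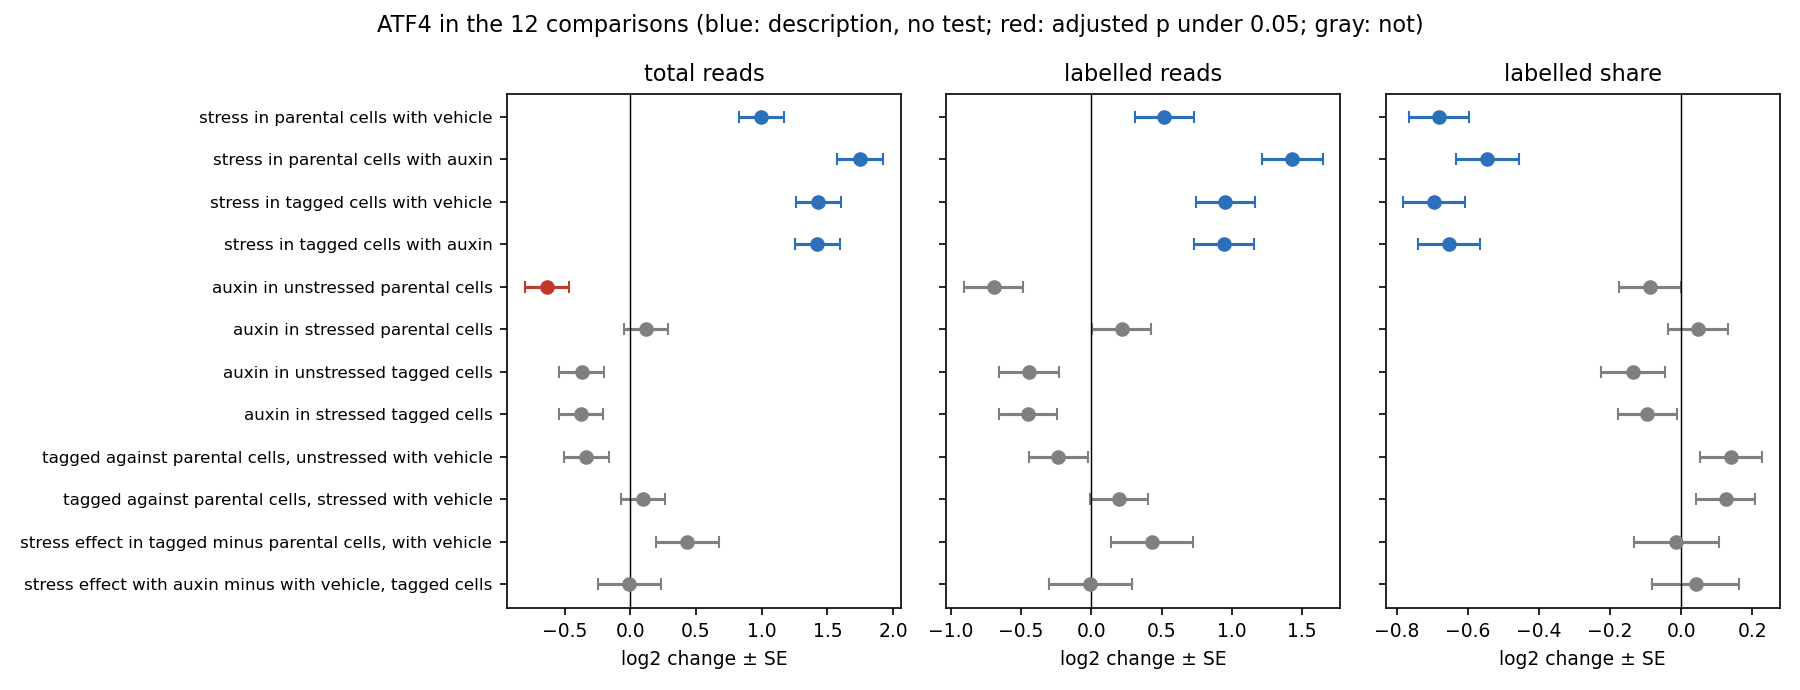
Fitted log2 changes of ATF4 in total reads, labelled reads and labelled share for the 12 comparisons, with standard errors; blue points are the stress comparisons, shown as a description, red points have an adjusted p under 0.05 and gray ones do not, and the 3 panels have separate axes. The stress comparisons lie right of 0 in total reads (1.00 to 1.75) and left of 0 in share (-0.70 to -0.55), while both interactions lie within 2 standard errors of 0.

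The machinery that carries the stress signal to the ATF4 leader was read against the 7.64%, 7.26%, 2.93% and 3.01% of all genes that rose in the 4 stress comparisons. Of 4 eIF2 kinases, EIF2AK3, the ER-resident kinase PERK, rose in parental cells with vehicle, from 3.50 ± 0.709 to 29.8 ± 7.70 CPM (3.06 ± 0.38 on the log2 scale, edgeR adjusted p = 5.84e-07), and the other 3 did not pass the test. Of 13 subunits of eIF2, eIF2B and the eIF2 phosphatase, PPP1R15A, the stress-induced phosphatase subunit GADD34, rose by 2.03 ± 0.22 (adjusted p = 4.34e-08) and none fell. The same counts held in the other 3 stress comparisons. The medians of these lists were 0.08 and 0.16, beside -0.01 over all genes tested.

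Of 8 factors of reinitiation and leaky scanning, which decide where a ribosome restarts, 3 rose in parental cells with vehicle: EIF2D by 1.75 ± 0.48, EIF2A by 1.08 ± 0.24 and EIF5 by 0.69 ± 0.16 (edgeR, adjusted p = 0.0159, 0.00251 and 0.0041). None of the 8 passed in the other 3 comparisons; without the smallest library 2 rose in parental cells with auxin and 1 in each tagged comparison. Without the smallest library, whose spread enters every comparison through the shared fit, 5 rose and 1 fell in parental cells with vehicle, and 4 of the 13 eIF2 and phosphatase genes rose; over all genes the number that rose went from 854 to 1785. Of 7 other mRNAs with regulatory upstream frames, 4 rose: DDIT3, PPP1R15A, EPRS1 and IBTK, by 5.10, 2.03, 0.94 and 0.80, against 7.64% of all genes, and 3 rose in each of the other 3 comparisons. The lists here and below overlap. DDIT3, PPP1R15A and EPRS1, among others, are counted in more than 1 of them, so the lists are not separate evidence.

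Of 14 bZIP proteins that can pair with ATF4 or share its sites, 7 rose and 1 fell in parental cells with vehicle, against 7.64% and 5.26% of all genes. DDIT3, the apoptosis-linked factor CHOP, went from 25.2 ± 2.80 to 864 ± 69.3 CPM (5.10 ± 0.21 on the log2 scale, edgeR adjusted p = 9.28e-18). ATF3, CEBPB and CEBPG rose by 3.05 ± 0.26, 2.53 ± 0.24 and 1.75 ± 0.15 (adjusted p = 4.31e-10, 7.39e-09 and 6.74e-10). The member that fell was CEBPA, from 15.1 to 7.66 CPM, named after its value was seen. Of 10 genes for ATF4 protein stability, TRIB3, a pseudokinase that binds ATF4, rose by 2.92 ± 0.20, and BTRC, the F-box protein that recognises phosphorylated ATF4, fell by 0.40 on the log2 scale (adjusted p = 0.0352).

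Most textbook targets of ATF4 rose. The lists were drawn up with earlier results of these libraries known, so their direction is no independent evidence. Of 17 stress regulators, 15 could be tested and 13 rose in parental cells with vehicle, with a median of 2.92. Of all genes tested, 7.64% rose there, with a median of -0.01. CHAC1, which degrades glutathione, rose by 5.06 ± 0.27, HERPUD1, a scaffold of ER-associated degradation, by 4.85 ± 0.21 and DDIT4, an inhibitor of mTORC1, by 4.44 ± 0.29 (edgeR, adjusted p at most 1.03e-12). In parental cells with auxin 14 rose, and in tagged cells 13 with vehicle and 13 with auxin, against 7.26%, 2.93% and 3.01% of all genes. None of the 15 fell in any of the 4.

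The metabolic targets rose less steeply in parental cells with vehicle, where 7.64% of all genes rose and the median over all genes was -0.01. Of 8 amino acid synthesis genes, 6 rose (median 1.09), led by PSAT1 of serine synthesis at 1.75 ± 0.26 and asparagine synthetase ASNS at 1.44 ± 0.15, with PSPH at 1.18 and MTHFD2 at 1.17. Of 8 amino acid transporters, 6 rose (median 1.07), led by the cystine carrier SLC7A11 at 2.20 ± 0.22, the glycine carrier SLC6A9 at 2.08 ± 0.24, SLC38A2 at 1.77 ± 0.14 and SLC3A2, the shared heavy chain of several carriers, at 1.19 ± 0.11. Of 10 cytosolic tRNA synthetases, 8 rose (median 0.73), among them IARS1, EPRS1, AARS1 and WARS1, by 1.14, 0.94, 0.80 and 0.78. All adjusted p from edgeR were at most 0.0328. Of 10 nonsense-mediated decay factors, a pathway known to act on ATF4 mRNA, none passed in total reads in parental cells with vehicle (median -0.10), where 2 fell without the smallest library. In parental cells with auxin 1 rose and 1 fell, and in each tagged comparison 1 fell. Of all 11184 genes tested, 812 rose and 357 fell in parental cells with auxin. In tagged cells 124 fell with vehicle and 128 with auxin. Without the smallest library, 1605 of 11256 genes fell in parental cells with vehicle.

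In labelled share, most metabolic targets rose, where ATF4 was lower. In parental cells with vehicle, 6 of 8 synthesis genes, 4 of 8 transporters and 8 of 10 synthetases rose in share, against 4.81% of all genes, and the only member of the 3 lists to fall was SLC3A2. The share of ASNS went from 4.54% to 13.5% (2.08 ± 0.20, edgeR adjusted p = 3.8e-15), that of WARS1 from 4.91% to 16.7% (2.33 ± 0.20, 2.43e-18) and that of PSAT1 from 12.8% to 23.6% (1.39 ± 0.20, 5.62e-08). That of SLC3A2 went from 30.8% to 18.05% (-0.68 ± 0.10, 1.4e-07), close to the values of ATF4. In the other 3 comparisons 6, 7 and 6 synthesis genes, 4, 5 and 5 transporters and 6, 8 and 8 synthetases rose in share, in the order parental with auxin, tagged with vehicle and tagged with auxin, and SLC3A2 again was the 1 that fell. Without centring, 4 of 8 synthesis genes, 2 of 8 transporters and 6 of 10 synthetases rose in parental cells with vehicle, and 2 transporters, SLC3A2 and SLC38A2, fell.

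The stress regulators went both ways in share. Of 15 tested in share, 3 rose (ATF5, GDF15 and TRIB3) and 2 fell (PPP1R15A and STC2) in parental cells with vehicle, all 5 named here after their values were seen, against 4.81% and 3.36% of all genes, with a median of -0.10 beside -0.07 over all genes. DDIT3, whose level rose most, had a share of 59.4% unstressed and 48.2% stressed, a change of -0.33 ± 0.17 that did not pass (edgeR, adjusted p = 0.272). CHAC1, HERPUD1 and DDIT4 changed in share by -0.26, -0.10 and -0.01, none past 0.05. These genes already had shares of 45.7% to 73.9% before stress, where ATF4 had 32.8%. No test compared the lists with one another.

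**Figure D4:**
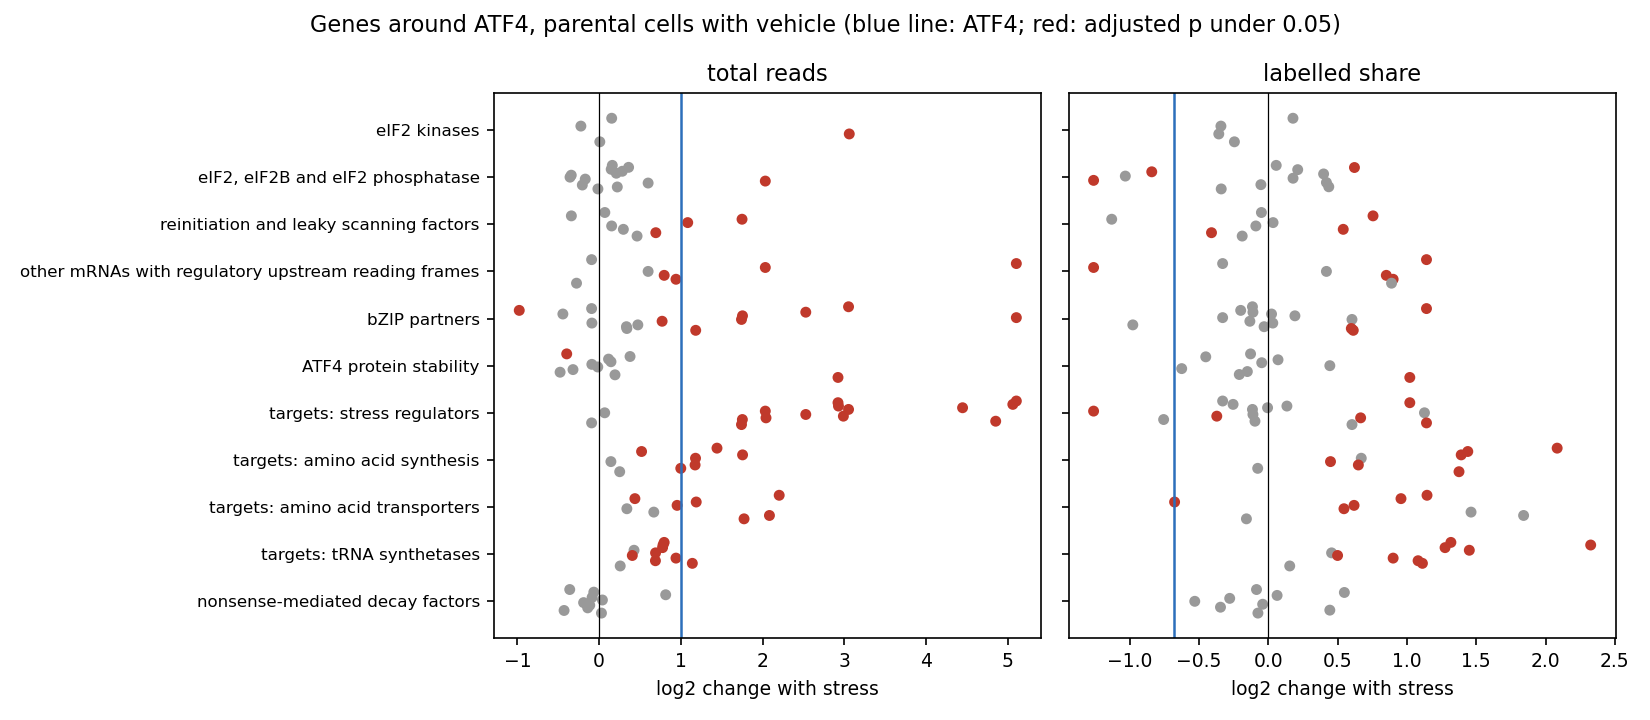
Log2 changes with stress in parental cells with vehicle for the members of 11 gene lists around ATF4, in total reads (left) and labelled share (right); each point is 1 gene, red where its adjusted p is under 0.05, and the blue line is ATF4. Target genes lie mostly right of 0 on the left, and on the right the synthesis, transporter and synthetase lists lie mostly right of 0 while ATF4 is at -0.68.

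More reads together with a lower labelled share, the combination seen in ATF4, was counted among the genes that rose. Of 813 genes tested in both readings that rose in parental cells with vehicle, 39 fell in share (4.8%), 169 rose in share and 605 passed in neither direction. The counts were 44 of 768 in parental cells with auxin (5.73%), 11 of 317 in tagged cells with vehicle (3.47%) and 15 of 330 in tagged cells with auxin (4.55%). Of all genes tested, 3.36%, 2.68%, 2.05% and 2.06% fell in share. ATF4 is among the counted genes in all 4, as its choice fixes. Without the smallest library the counts were 85 of 1702, 18 of 612, 16 of 553 and 22 of 553.

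The 4 comparisons share no library, but each reading was fitted over all libraries together, so they are not independent. Of 8978 genes tested in both readings, 7 met both conditions every time: ATF4, EGR1, IER3, IFRD1, PMAIP1, PPP1R15A and SLC3A2. Without the smallest library there were 9, these 7 with PHLDA1 and ZNF770. EGR1, IFRD1, PHLDA1 and ZNF770 lie outside the naming rule and are named after their values were seen. PPP1R15A, the GADD34 phosphatase subunit whose own mRNA has upstream frames, went from 75.2% to 49.9% labelled while its level went from 27.9 ± 3.39 to 114 ± 5.79 CPM in parental cells with vehicle (share change -1.26 ± 0.22, edgeR adjusted p = 4.9e-06). IER3, an immediate early gene, went from 63.8% to 51.5% (-0.40 ± 0.06, 2.33e-07) and PMAIP1, the pro-apoptotic protein NOXA, from 48.2% to 33.1% (-0.58 ± 0.12, 0.000346). These genes were selected for passing in this comparison, so their adjusted p-values restate the selection and are no further evidence.

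By fold change in total reads, the first 10 genes of this kind in parental cells with vehicle were STC2, PPP1R15A, SLC35B2, NDUFB3, WRAP73, GNB2, CEP95, TSC22D4, MUS81 and NBPF11, and ATF4 was number 20. STC2, a secreted glycoprotein, rose by 2.99 with a share change of -0.37. SLC35B2, NDUFB3 and GNB2 rose by 1.95, 1.82 and 1.59 in this comparison, with share changes of -2.27, -1.94 and -2.16. In parental cells with auxin the total reads of these 3 changed by -0.89, -0.82 and -0.72. Of the 10, only PPP1R15A met both conditions in all 4 comparisons.

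**Figure D5:**
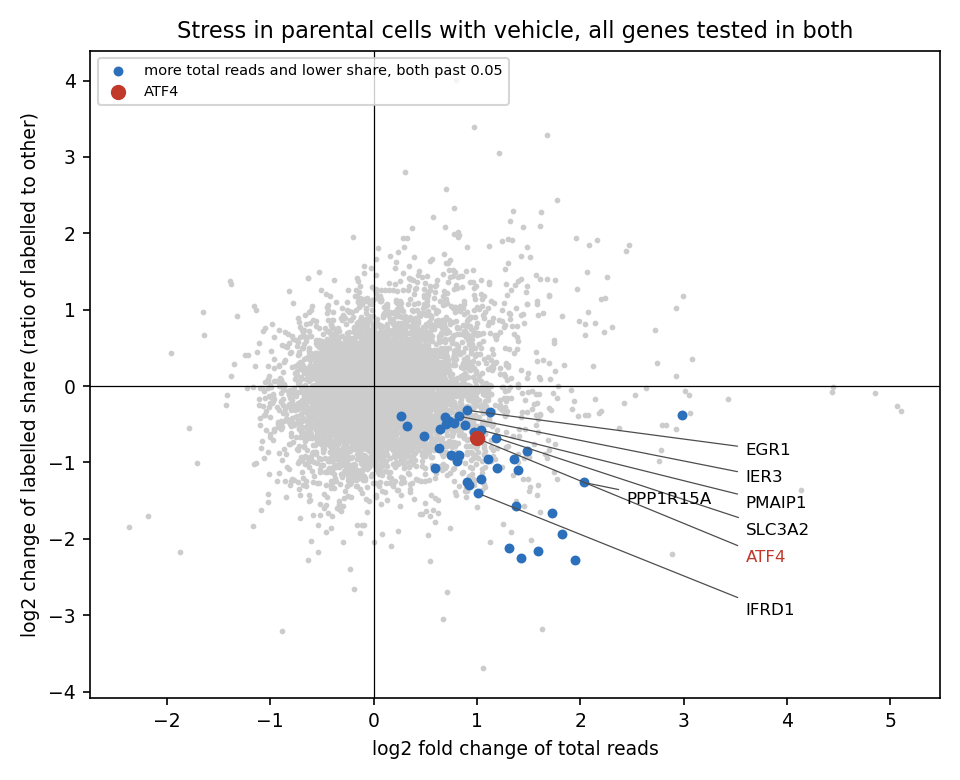
Each point is 1 gene tested in both readings, with its log2 fold change of total reads (x) and log2 change of labelled share (y) with stress in parental cells with vehicle; blue points had more reads and a lower share, both past an adjusted p of 0.05, and the 7 genes that did so in all 4 comparisons are named. ATF4 (red) is at 1.00 and -0.68, beside SLC3A2, and PPP1R15A is further out.

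Over the 32 libraries, the 10 genes whose level ran most like that of ATF4 (Pearson r of log2 CPM among 11183 genes, a description, as all values come from the same libraries and stress divides them) included WARS1 (0.97), SDF2L1 (0.97), MSTO1 (0.97), CARS1 (0.96), GARS1 (0.96), ZFAND2A (0.96), TES (0.95), TRIM27 (0.95) and AARS1 (0.95). WARS1, CARS1, GARS1 and AARS1 charge tRNAs with tryptophan, cysteine, glycine and alanine. SDF2L1 is an ER protein of the chaperone system; its share went from 6.98% to 18.8% with stress in parental cells with vehicle, opposite to ATF4.

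A different set followed ATF4 in labelled share. Here r was taken on the log2 ratio of labelled to other reads without centring, so each library's overall labelling enters it. Among 2386 genes with a mean of at least 50 labelled reads, the 10 with the highest r included SLC3A2 (0.95), IER3 (0.94), RPL13A (0.94), NOP56 (0.93), KITLG (0.93), HSP90AA1 (0.92), PPP1CC (0.92), PMAIP1 (0.91) and CDT1 (0.91). SLC3A2, IER3 and PMAIP1 also had higher levels under stress in all 4 comparisons. RPL13A encodes a ribosomal protein and NOP56 a factor of ribosomal RNA modification; their total reads changed by 0.41 and -0.36 with stress in parental cells with vehicle. No gene was in both sets of 10.

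Some limits touch every ATF4 value. The genome holds the ATF4 pseudogenes ATF4P1 and ATF4P2 on chromosome X, ATF4P3 on chromosome 17 and ATF4P4 on chromosome 11, and reads from near-identical copies could be split or merged by the authors' mapping; the deposited column of multimapped reads is 0 throughout.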

How the data were processed

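The authors deposited 1 table per library of raw read counts per transcript 3′ region, which the file naming credits to Slamdunk, with genome build hg38 per the submitters' processing notes; its version, its conversion threshold for a labelled read and its annotation release are not given in the sources used here. Per the file headers, each table holds reads, reads with T-to-C conversions, covered T positions and conversions. ATF4 held 1.156 to 1.661 conversions per labelled read over the libraries, so a read with 1 conversion could count as labelled. The authors' deposited CPM column and their conversion rate, a fraction of covered T positions, entered no test.

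RefSeq identifiers were matched to symbols with the RefSeq GRCh38.p14 gene table (46328 of 95582 rows matched; unmatched rows held 36.9% to 43.5% of counts and were left out). For each gene the row with the most reads was kept, which for 52.9% of genes meant choosing among several. CPM values in the text were computed from the counts. Total and labelled counts were fitted over all 32 libraries with edgeR 4.0.16 (robust quasi-likelihood test, filterByExpr, TMM factors, Benjamini-Hochberg over all genes tested, threshold 0.05). For the share, each library entered as labelled and other reads with 1 term per library, each kind with its own TMM factors. Tested on simulated data modelled on stress in parental cells with vehicle, the fits recovered 90.5% of 2-fold changes in total reads and 72% of 2-fold lower ratios. Of the calls, 4.2% and 6.2% were false. The simulated share had no spread between libraries beyond counting error and no shift of overall labelling, so recovery of ratios may be lower in the real libraries.

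ATF4 and the gene lists were chosen with earlier results of these data known. Named genes are the 10 most like ATF4 in level and in share, the 10 of its pattern with the largest fold change, up to 4 members per list, IGF2BP3 and HSPA5. The list members are those with the largest changes, up or down, among members that passed in total reads in parental cells with vehicle. Their adjusted p-values in that comparison are therefore under 0.05 by this choice. Of the genes most like ATF4, 1 in level and 1 in share are not reported here. Libraries of 1 group were compared with one another, and no 2 agreed within sampling noise. Same-numbered libraries of different groups did not meet the condition for pairing (50 of 112 pairs had a correlation of deviations over 0.1, median 0.06), although odd and even numbers differed in labelling in every group. Alternatives covered scaling, filtering, library size, row choice, the libraries fitted, a covariate, a replicate block, DESeq2 1.42.0 and limma 3.58.1.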

Additional observations from a re-analysis of the deposited data

Results flagged for a closer look

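In 4 of 40 sets of 4 libraries examined for ATF4, 1 library lay far from the other 3; chance marks about 1 set in 20. The total level in unstressed tagged cells with vehicle was 818.5 CPM in replicate 4 and 683 to 705.5 CPM in the others. Labelled ATF4 in unstressed parental cells with auxin was 210.5 CPM in replicate 4 and 164.4 to 169.4 CPM in the others. In stressed parental cells with auxin, replicate 1, the smallest library, had 645.8 labelled CPM where the others had 283 to 313.5, and 1.398% of covered T positions converted where the others had 1.061% to 1.097%.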

How the results depend on the processing

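Of 714 alternative values for 36 ATF4 results, 654 kept their direction and side of the threshold. The stress changes, a description, kept their direction in total reads (1.00, 1.75, 1.43 and 1.42 as reported; 0.88 to 1.86 over the alternatives) and in labelled share (-1.01 to -0.38). A term for odd and even replicate numbers in each state changed no call. The changes below are log2 values, and for each the cause was not tested.

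The replicate block ended no call; it turned the tagged interaction of auxin and stress to 0.002 in total and 0.004 in labelled reads. The fitted stress change of labelled reads in parental cells with vehicle, a description, was 0.52 as reported, 0.52 without the smallest library, 0.55 with no filter, 0.74 with T positions per read as a covariate, 0.52 with only the groups compared and 0.53 with DESeq2. Auxin in unstressed parental cells came to pass in labelled reads under the first 4 of these (-0.70, -0.67, -0.39 and -0.68) and when scaled by total reads (-0.75). With only the groups compared, auxin in unstressed and stressed tagged cells passed in total (-0.36 and -0.38) and labelled reads (-0.44 and -0.44). Auxin in stressed parental cells turned with the covariate in total (-0.12), labelled (-0.15) and share (-0.038), with library size over all rows in total (-0.028), and in share with no centring (-0.059) and limma on conversions (-0.032). In share, auxin turned in unstressed parental cells with the covariate (0.007) and limma on conversions (0.069), and with the latter in unstressed (0.009) and stressed tagged cells (0.001) and in the tagged interaction (-0.008); stress in tagged minus parental cells turned with no centring (0.062).

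Leaving out 1 library at a time gave, for auxin in unstressed parental cells, -0.75 to -0.50 in total and -0.80 to -0.58 in labelled reads; in stressed parental cells, -0.11 to 0.22, -0.18 to 0.36 and, in share, -0.08 to 0.088; for the tagged interaction, -0.116 to 0.071 in total and -0.097 to 0.094 in labelled reads; and for stress in tagged minus parental cells in share, -0.063 to 0.021.

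Over all genes, the calls with stress in total reads went from 1442, 1169, 452 and 465 (parental with vehicle and auxin, then tagged) to 2229, 119, 779 and 957 with only the groups compared and to 1783, 1202, 1022 and 1069 with the covariate. Without the smallest library they were 3390, 868 and 912 outside parental cells with auxin. With library size over all rows, the share of calls that were higher went from 59.2%, 69.5%, 72.6% and 72.5% to 49.5%, 47.9%, 62.7% and 60.8%. For labelled reads scaled by total reads it went from 59.1%, 69.6%, 72.9% and 71.2% to 24.5%, 26.4%, 38.4% and 33.2% (median over all genes -0.31 to -0.24), and with library size over all rows to 42.9%, 46.7%, 53% and 52.2%.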
